A study of Mus musculus with 4 samples.

Results

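The tubulin isotype genes were 10 rows of a gene expression table of mouse neural stem/progenitor cells (NSCs), chosen by name out of 18169 rows. Of these, 4 encode alpha-tubulins (Tuba1a, Tuba1b, Tuba1c and Tuba4a) and 6 encode beta-tubulins (Tubb2a, Tubb2b, Tubb3, Tubb4b, Tubb5 and Tubb6). RNA was sequenced from 4 primary NSC cultures on the C57BL/6 background, 2 of them wild type (+/+) and 2 homozygous for loss of Chd5 (Chd5-/-), which encodes a chromatin remodeller. Every culture came from the periventricular brain tissue of a single newborn mouse and was grown with epidermal growth factor and fibroblast growth factor 2. The growth protocol gave postnatal day 1 for the animals, whereas the age entries of the +/+ cultures read day 1 and day 2 and those of the Chd5-/- cultures day 3 and day 4, and by those entries age and genotype cannot be told apart. Values were TPM, a level corrected for transcript length and scaled to the same total in each sample, and such values hold no record of read depth.

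Microtubules are hollow polymers of alpha- and beta-tubulin heterodimers that form the mitotic spindle, the ciliary axoneme and the tracks of axons and dendrites. Mammals carry several genes for each subunit, and the encoded isotypes are nearly identical in the folded body and differ mainly in a short acidic carboxy-terminal tail, which lies on the microtubule surface and is polyglutamylated, detyrosinated and bound by motors and severing enzymes. In the developing brain, Tuba1a, Tubb2a, Tubb2b and Tubb3 are the isotypes best known from neurons and their progenitors, whereas Tuba1b, Tubb4b and Tubb5 are used broadly by dividing cells.

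Chd5, the targeted gene, had 0.39 and 0.37 TPM in the +/+ samples and 0.06 and 0.04 TPM in the Chd5-/- samples, so both Chd5-/- samples were lower, at levels under the 1 TPM used as the minimum mean for testing. The 8 NSC markers were all detected, and their sum of 7816 and 6397 TPM in +/+ and 3380 and 5568 TPM in Chd5-/- was mostly Fabp7 (5892 and 4316 TPM, and 1939 and 3822 TPM). Fabp7, Vim and Sox2 were lower in both Chd5-/- samples, beside 13.0% of all rows tested that were lower without overlap. Sox2 was barely so in Chd5-/- replicate 2 (432.19 TPM against 438.99 and 441.66 TPM in +/+). The genotypes overlapped for the other 5, so 0 were higher without overlap, against 46.3% of all rows tested. With limma, 0 of the 8 passed an unadjusted p of 0.05, against 21.9% of all rows tested higher and 2.27% lower. The microglial and endothelial lists stayed under 1 TPM in every sample. Chd5-/- replicate 1 stood apart, with 12.2 TPM summed over 6 mesenchymal markers against at most 0.17 TPM in the other samples. Its sum over 8 astrocyte markers was 979 TPM against 2435 to 2809 TPM, with Slc1a3 the largest part (442 TPM against 1006 to 1871 TPM). Slc1a2, Aldoc and Gfap were lowest there and S100b barely so, whereas Aqp4, Gja1 and Aldh1l1 were above +/+ replicate 1. In bulk RNA, fewer cells of a type and less message per cell cannot be told apart. Testing was limited to the 12576 rows whose mean reached 1 TPM. Their median log2 fold change between genotypes was 0.34 towards Chd5-/-, so a gene at that median sits above 0.

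Tuba1a lies at chr15:98949837-98953703 on the minus strand, Tuba1b at chr15:98931425-98934565 on the minus strand and Tuba1c at chr15:99029891-99038110 on the plus strand, a cluster of neighbours, and Tuba4a lies alone at chr1:75214228-75219865 on the minus strand. All positions are on GRCm38 with GENCODE annotation.

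The carboxy-terminal tail is shown as the last 69 coding bases of the 4 genes that carried most of the beta-tubulin message, 5′ to 3′, with glutamate codons (GAA or GAG) in capitals and the stop codon at the end. All lie in the coding part of exon 4 of 4.

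Tubb2a: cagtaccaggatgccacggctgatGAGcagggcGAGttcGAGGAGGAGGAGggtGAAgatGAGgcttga
Tubb2b: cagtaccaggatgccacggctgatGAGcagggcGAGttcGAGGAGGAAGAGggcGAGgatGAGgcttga
Tubb4b: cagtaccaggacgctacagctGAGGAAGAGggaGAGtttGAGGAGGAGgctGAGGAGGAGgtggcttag
Tubb5: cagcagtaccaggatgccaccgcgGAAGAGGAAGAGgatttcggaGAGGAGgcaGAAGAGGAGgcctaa

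Tubb2a (chr13:34074274-34078007) and Tubb2b (chr13:34126748-34130466) are neighbours on the minus strand, Tubb4b lies at chr2:25222160-25224702 and Tubb5 at chr17:35833921-35838306, both on the minus strand, and Tubb3 at chr8:123411424-123422015 on the plus strand. The Tubb2a and Tubb2b tails differ only between codons for the same residue, so they encode the same tail. The tail of Tubb4b had 10 glutamate codons among 22, Tubb5 had 9, and Tubb2a, Tubb2b and Tubb3 had 8 each. Coding identity was 98.3% between Tuba1a and Tuba1b, 97.1% between Tuba1a and Tuba1c, 97.9% between Tuba1b and Tuba1c and 96.5% between Tubb2a and Tubb2b. It ranged from 84.7% to 98.3% among the alpha genes, from 80.3% to 96.5% among the beta genes and from 56.0% to 58.5% between the families.

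This likeness limits how reads can be assigned. Of all 75-base windows of the transcript, 68.2% in Tuba1a, 71.9% in Tuba1b and 56.7% in Tuba1c also occurred in another annotated gene, as did 43.2% in Tubb2a, 32.2% in Tubb2b and 37.8% in Tubb4b, whose matches were Tubb4b-ps1, Tubb4b-ps2 and Gm16165. No window was shared for Tuba4a, Tubb3, Tubb5 or Tubb6. The levels of Tuba1a, Tuba1b and Tuba1c, of Tubb2a and Tubb2b, and of Tubb4b are therefore uncertain as far as the authors' counting divided shared reads.

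Tuba1a and Tuba1b supplied nearly all alpha-tubulin message in every culture. Tuba1a, the alpha isotype of migrating and axon-forming neurons, had 668 and 596 TPM in +/+ and 594 and 988 TPM in Chd5-/-. The Chd5-/- samples lay on either side of the +/+ samples, and the log2 fold change on the log2(TPM + 1) scale was 0.28 (SE 0.32, 95% interval -0.54 to 1.10, limma adjusted p = 0.617). Tuba1b, the widely expressed alpha isotype, had 371 and 259 TPM in +/+ and 504 and 435 TPM in Chd5-/-. Both Chd5-/- samples were above both +/+ samples, but the log2 fold change of 0.59 (SE 0.27, 95% interval -0.10 to 1.29) had a limma adjusted p of 0.256. Removing trends with GC content and transcript length turned both directions, to -0.36 for Tuba1a and -0.23 for Tuba1b, and leaving out Chd5-/- replicate 2 turned Tuba1a to -0.09.

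Tuba1c, an alpha isotype found in many tissues, was a minor form with the largest genotype difference of the 9 members tested. Its level was 2.57 and 4.82 TPM in +/+ and 22.1 and 31.2 TPM in Chd5-/-. The genotypes were far apart, with means of 3.70 ± 1.59 TPM and 26.7 ± 6.43 TPM (SD, n = 2 each), a 7.22-fold ratio. The log2 fold change was 2.58 (SE 0.37, 95% interval 1.65 to 3.51), with an unadjusted p of 7.5e-04 and an adjusted p of 0.120 by limma over all 12576 rows, which missed the 0.05 threshold. As a share of the alpha-tubulin total, Tuba1c was at 0.246% and 0.558% in the +/+ samples and at 1.95% and 2.15% in the Chd5-/- samples, a small fraction of the message in each. Its log2 fold change stayed between 1.70 and 2.94 in all 17 alternative settings. As 56.7% of its windows were shared, with genes that included the far more abundant Tuba1a and Tuba1b, a change in how shared reads were divided cannot be told apart from a change in Tuba1c.

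Tuba4a, an alpha isotype of mature neurons and muscle, had 3.53 and 5.02 TPM in +/+ and 13.9 and 1.93 TPM in Chd5-/-. The 2 Chd5-/- samples were the highest and the lowest of the 4, 7.20-fold apart, and the log2 fold change was 0.34 (SE 0.79, adjusted p = 0.813 by limma). Without Chd5-/- replicate 1 its value was -0.83.

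**Figure D1:**
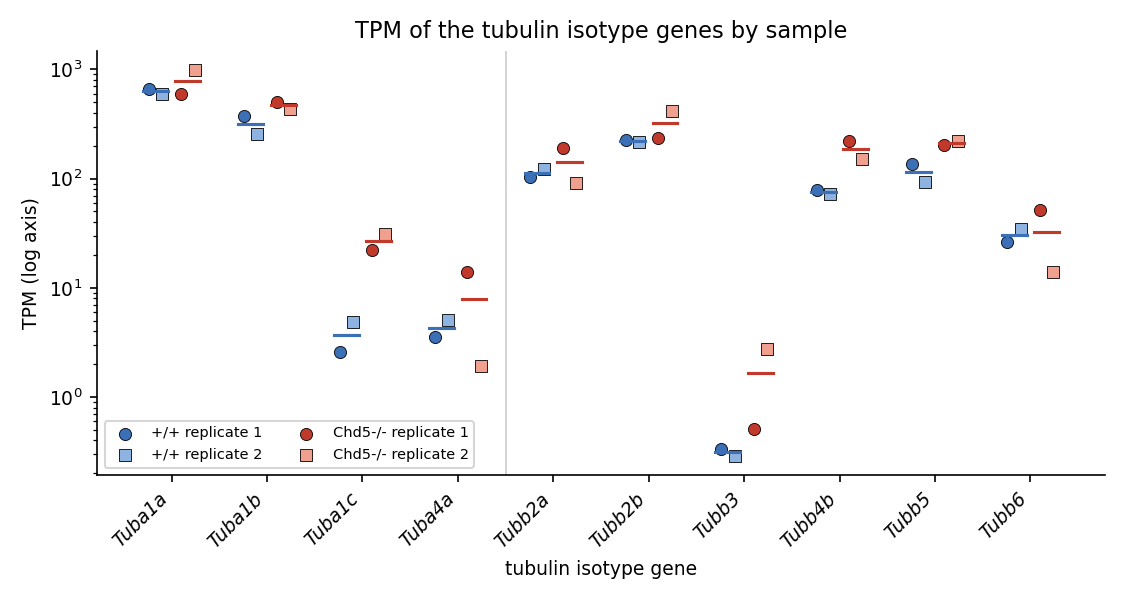
Level of each tubulin isotype gene in TPM (log axis) in the 4 NSC samples, with +/+ in blue, Chd5-/- in red, replicate 1 as circles, replicate 2 as squares and the genotype mean as a line. Tuba1a and Tuba1b sit highest in every sample, the Tuba1c and Tubb4b points of the genotypes are apart, and the Chd5-/- points of Tuba4a and Tubb6 lie on both sides of the +/+ points.

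Tubb4b, a broadly expressed isotype that also builds ciliary axonemes, had the largest log2 fold change of the 5 beta-tubulin members tested. It had 78.2 and 72.6 TPM in +/+ and 220 and 152 TPM in Chd5-/-. The genotypes did not overlap, with means of 75.4 ± 3.98 and 186 ± 48.6 TPM (SD, n = 2 each) and a 2.47-fold ratio. The log2 fold change was 1.27 (SE 0.26, 95% interval 0.60 to 1.94), with an unadjusted p of 0.00429 and a limma adjusted p of 0.120. It was 0.49 once GC and length trends were removed, against an all-row median of -0.0074 in that setting. Beside it, 5 markers of ciliated ependymal cells summed to 4.39 and 5.01 TPM in +/+ and 10.8 and 14.5 TPM in Chd5-/-. Foxj1, the regulator of motile cilia, had 1.52 and 1.71 TPM in +/+ and 6.5 and 5.11 TPM in Chd5-/- (limma unadjusted p = 0.00685, adjusted p = 0.122). Of all rows tested, 21.9% were higher at an unadjusted p under 0.05. Ccdc153 was higher without overlap but under 1 TPM (0.35 and 0.39 in +/+, 0.62 and 0.46 in Chd5-/-), beside 46.3% of all rows tested. Rsph1, Dynlrb2 and Tmem212 overlapped between genotypes, with Tmem212 at 0 in 3 of the 4 samples. Dynlrb2 had 1.95 and 2.22 TPM in +/+ and 1.80 and 8.42 TPM in Chd5-/-, the largest part of the replicate 2 sum. The part of these cells in the Tubb4b values was not tested.

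Tubb5, a beta isotype used broadly by dividing cells, had 138 and 93.6 TPM in +/+ and 203 and 222 TPM in Chd5-/-. Both Chd5-/- samples were above both +/+ samples, and the log2 fold change was 0.90 (SE 0.27, 95% interval 0.22 to 1.58), with an unadjusted p of 0.0190 and an adjusted p of 0.150 by limma. Tubb2b, a beta isotype of migrating cortical neurons, was the most abundant beta gene in all 4 samples, with 228 and 218 TPM in +/+ and 236 and 413 TPM in Chd5-/-. The lower Chd5-/- sample was barely above the +/+ samples, and the log2 fold change of 0.49 had a limma adjusted p of 0.397.

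Tubb2a, the neighbour of Tubb2b, had 104 and 123 TPM in +/+ and 193 and 92.1 TPM in Chd5-/-, so the Chd5-/- samples again bracketed the others (log2 fold change 0.24, limma adjusted p = 0.733). Tubb6, a divergent beta isotype found in non-neural tissue, had 26.1 and 34.6 TPM in +/+ and 51.4 and 14.0 TPM in Chd5-/-, a log2 fold change of -0.15 (limma adjusted p = 0.899). Tubb3, the isotype used as a marker of neurons, was near absent, at 0.33 and 0.29 TPM in +/+ and 0.51 and 2.77 TPM in Chd5-/-. Its mean of 0.975 TPM fell just under the minimum, so it was not tested, and its difference of 0.87 on the log2(TPM + 1) scale came mostly from Chd5-/- replicate 2. Beside it, the neuronal marker Map2 had 366 to 785 TPM, whereas Rbfox3, a marker of mature neurons, had at most 0.07 TPM in any sample.

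Of the 9 members tested, 0 had an adjusted p under 0.05, against 0.0557% of all rows tested (7 rows). At an unadjusted p under 0.05, 3 members were higher (Tuba1c, Tubb4b and Tubb5), or 33.3%, against a background of 21.9%, and 0 were lower against 2.27%. Genotypes did not overlap, with Chd5-/- higher, in 5 of the 9 (55.6%) against 46.3% of all rows tested, and with Chd5-/- lower in 0 against 13.0%. The median log2 fold change of the members was 0.49, beside 0.34 for all rows. An exact permutation test of any single gene with 2 samples against 2 cannot give a two-sided p under 0.333. Leaving out 1 sample leaves a lone sample in its genotype, with no spread of its own, so only log2 fold changes are given. Tuba1c was at 2.82 without Chd5-/- replicate 1, 2.34 without Chd5-/- replicate 2, 2.23 without +/+ replicate 1 and 2.94 without +/+ replicate 2. Tubb4b was at 1.00, 1.54, 1.32 and 1.22 in the same order, and Tubb2b at 0.89, 0.09, 0.52 and 0.45.

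**Figure D2:**
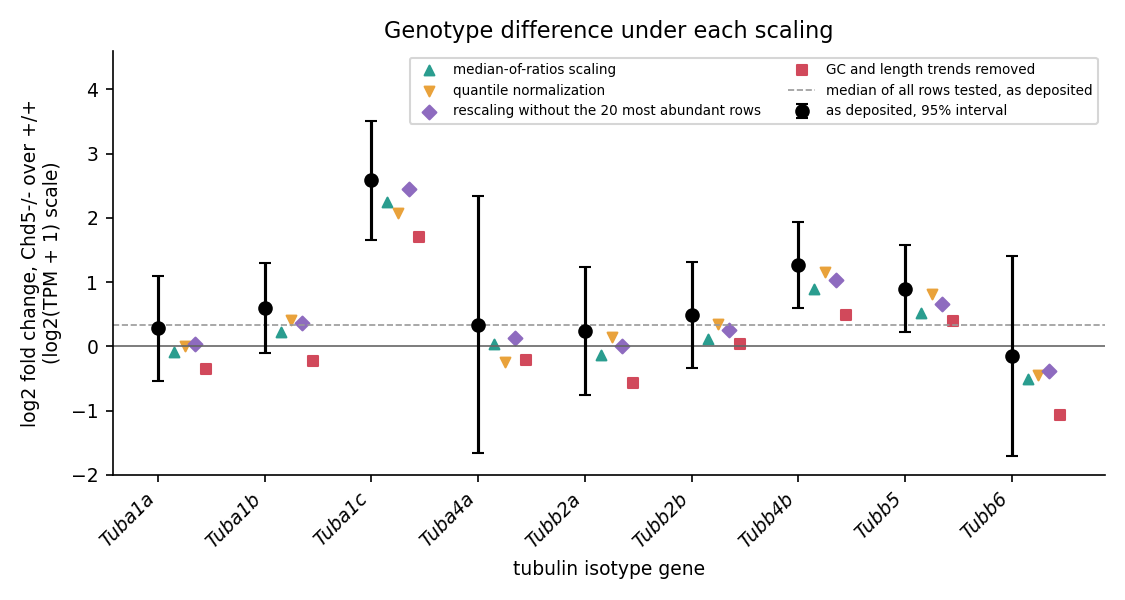
Log2 fold change of Chd5-/- over +/+ for the 9 members tested, on the log2(TPM + 1) scale, with 95% intervals from limma (black) and the value under 4 other scalings (coloured symbols), beside the all-row median of 0.34 (dashed line). Tuba1c, Tubb4b and Tubb5 stay above 0 under each scaling shown, and Tuba1a, Tuba1b, Tuba4a and Tubb2a cross 0 in at least 1 of them.

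Scaling set the size of these differences. The median log2 fold change over all rows was 0.34 with the deposited values, 0.0051 with median-of-ratios scaling, -0.054 with quantile normalization and 0.13 after rescaling without the 20 most abundant rows. With the deposited values 2748 rows lay higher and 285 rows lower at an unadjusted p under 0.05, against 1509 and 1311 with median-of-ratios scaling, 1103 and 1024 with quantile normalization, 1871 and 819 after the rescaling, and 609 and 657 of the 12103 rows with GC and length values once those trends were removed. The 9 members tested were richer in GC than most rows tested, with a median transcript GC content of 54.9% (51.2% to 56.6%) against 49.8%. With those trends removed, Tuba1c was at 1.70, Tubb4b at 0.49, Tubb5 at 0.39 and Tubb2b at 0.04, and the median of the members was -0.22.

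Added together, the alpha-tubulin genes had 1045 and 864 TPM in +/+ and 1134 and 1456 TPM in Chd5-/-. The beta-tubulin genes had 574 and 542 TPM in +/+ and 905 and 895 TPM in Chd5-/-. Both sums were higher in both Chd5-/- samples, as were 46.3% of the single rows tested. Their log2 ratios of 0.44 (alpha) and 0.69 (beta) stood beside an all-row median log2 fold change of 0.34. With GC and length trends removed they were -0.27 and 0.075. Together the 10 genes made up 0.162% and 0.141% of all TPM in +/+ and 0.204% and 0.235% in Chd5-/-. The ratio of beta to alpha message was 0.549 and 0.627 in +/+ and 0.798 and 0.615 in Chd5-/-, and the genotypes overlapped. The heterodimer holds both subunits in equal number, and these sums measure message and not protein.

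The isotype mix of the alpha family was Tuba1a at 63.9% and 68.9% in +/+ and 52.4% and 67.9% in Chd5-/-, and Tuba1b at 35.5% and 29.9% in +/+ and 44.5% and 29.9% in Chd5-/-. In both cases Chd5-/- replicate 1 lay apart from the other samples, and replicate 2 was within or just beside the +/+ values. Within the beta family, Tubb4b made up 13.6% and 13.4% in +/+ and 24.4% and 17.0% in Chd5-/-, higher in both Chd5-/- samples. Tubb2b held 39.7% and 40.2% in +/+ and 26.1% and 46.1% in Chd5-/-, and Tubb2a held 18.1% and 22.7% in +/+ and 21.3% and 10.3% in Chd5-/-. The ratio of Tubb2b to Tubb2a was 2.19 and 1.77 in +/+ and 1.23 and 4.48 in Chd5-/-, so the Chd5-/- samples gave the lowest and the highest ratio.

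**Figure D3:**
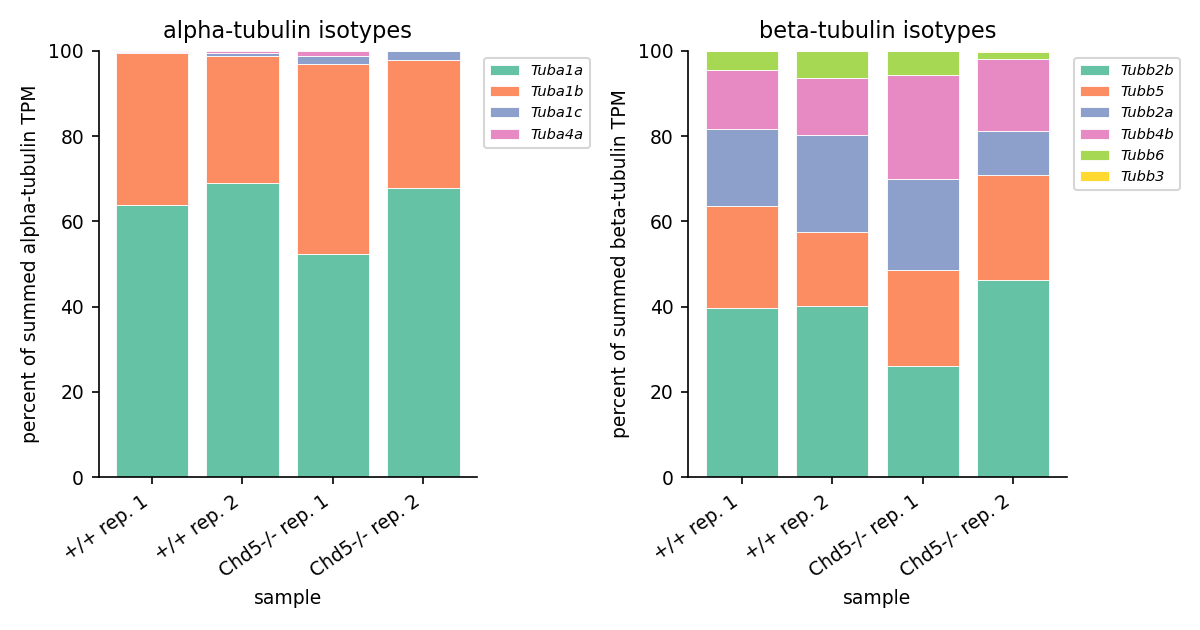
Share of each isotype in the summed alpha-tubulin TPM (left) and beta-tubulin TPM (right) of each sample, in percent. Tuba1a and Tuba1b fill almost the whole alpha bar, and the Tubb4b segment is larger in both Chd5-/- samples than in the +/+ samples.

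The levels had a stable order at the top. In all 4 samples the order was Tuba1a, then Tuba1b, then Tubb2b, and within each genotype the 2 values of each did not overlap those of the next. In +/+, Tubb5 (138 and 93.6 TPM) and Tubb2a (104 and 123 TPM) overlapped and both exceeded Tubb4b. In Chd5-/-, the values of Tubb4b overlapped those of Tubb5 and of Tubb2a, and both Tubb5 values were above both Tubb2a values. Tubb6 followed at a lower level in 3 of the 4 samples, and Tuba1c, Tuba4a and Tubb3 filled the last places.

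The 2 Chd5-/- samples disagreed more than the 2 +/+ samples. The median size of the log2 difference between replicates over the members was 0.32 in +/+ and 0.77 in Chd5-/-, beside 0.25 and 0.40 over all rows tested. For 6 of the 10 members the 2 Chd5-/- samples differed by more than the genotypes did, and for 3 of the 10 the 2 +/+ samples did. In Chd5-/-, replicate 1 was higher than replicate 2 by 7.20-fold for Tuba4a, 3.68-fold for Tubb6, 2.09-fold for Tubb2a and 1.45-fold for Tubb4b, whereas replicate 2 was higher by 1.66-fold for Tuba1a, 1.75-fold for Tubb2b and 5.43-fold for Tubb3. Beside this split, the mesenchymal markers summed to 12.2 TPM in replicate 1 (Col3a1 7.41 TPM, Dcn 4.17 TPM, and 4 of the 6 under 1 TPM in every sample) and to 0.17 TPM in replicate 2, and of the neuronal markers, Map2 had 366 TPM in replicate 1 and 785 TPM in replicate 2. Only as a sum did the other 13 neuronal markers in the table go the other way, with 218 TPM in replicate 1 and 144 TPM in replicate 2. Most of that sum was Gap43 (148 and 121 TPM) and Gad1 (57.2 and 5.38 TPM). The single markers were split, and Syt1 (2.21 and 7.62 TPM) and Elavl3 (4.15 and 5.74 TPM) were among those higher in replicate 2, as Map2 was. The astrocyte sum was 979 TPM in replicate 1 and 2435 TPM in replicate 2. Their part in the tubulin differences was not tested.

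**Figure D4:**
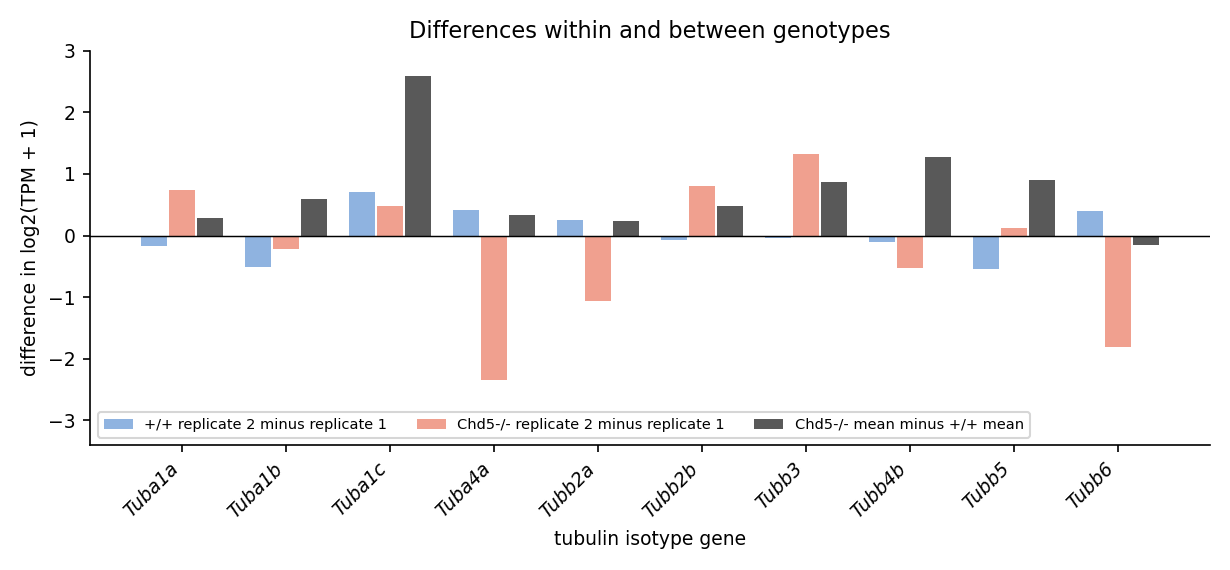
Differences in log2(TPM + 1) between replicates within each genotype (replicate 2 minus replicate 1, coloured) and between the genotype means (dark) for the 10 members. For Tuba1b, Tuba1c, Tubb4b and Tubb5 the genotype bar is the longest, and for Tuba4a and Tubb6 the Chd5-/- replicate bar is.

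The 7 further tubulin genes in the table were at low levels. Tubb4a, a beta isotype of neurons and oligodendrocytes, had 1.74 and 1.56 TPM in +/+ and 6.97 and 14.4 TPM in Chd5-/-, a log2 fold change of 2.06 (limma adjusted p = 0.120). Tubg1, the gamma-tubulin that nucleates microtubules, had 8.77 and 7.16 TPM in +/+ and 28.5 and 15.6 TPM in Chd5-/-, a log2 fold change of 1.31 (limma adjusted p = 0.139). Tubd1 and Tube1, the delta- and epsilon-tubulins of centrioles, differed by 0.27 and 0.50. Tubg2, the second gamma-tubulin gene, had 0.12 and 0.11 TPM in +/+ and 2.00 and 0.97 TPM in Chd5-/-, which did not overlap, and was not tested because its mean of 0.8 TPM was under the minimum. Tuba8 and Tuba3b were under 1 TPM in every sample.

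The further tubulin genes and the genes that fold, modify and organize tubulin were read from 8 lists with 76 genes. Of these, 71 were in the table and 60 were tested. Of the 60, 14 (23.3%) were higher at an unadjusted p under 0.05, near the 21.9% of all rows, 1 was lower and 0 passed the adjusted threshold. Their median log2 fold change was 0.31, beside 0.34 for all rows. The list of tubulin-binding cofactors held 7 genes, 1 of them Arl2, a small GTPase that acts with the cofactors. Arl2 was at 2.05 (7.55 and 5.14 TPM in +/+, 36.5 and 22.9 TPM in Chd5-/-, limma adjusted p = 0.120). Tbcb was at 0.97, whereas Tbcel and Tbce were at 0.05 and -0.04. Of the 6 prefoldin subunits, which hand nascent tubulin to the chaperonin, 3 were higher and 1 lower at an unadjusted p under 0.05, against 21.9% and 2.27% of all rows. Pfdn5 was at 1.63 (114 and 65.2 TPM in +/+, 257 and 283 TPM in Chd5-/-) and Pfdn2 at 1.03, and Vbp1 and Pfdn4 were at -0.55 and -0.44.

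The 8 subunits of CCT, the chaperonin that folds tubulin, had no member past an unadjusted p of 0.05 in either direction, with a median log2 fold change of 0.05 that was below the all-row median. Cct5 and Cct7 were at 0.54 and 0.43 and Cct6a and Cct8 at -0.49 and -0.34. Of 17 tubulin-modifying enzymes tested, 3 were higher and 0 lower at that threshold, a smaller share higher than the 21.9% of all rows, of which 2.27% were lower. Among these enzymes the largest and smallest log2 fold changes were those of the deacetylase Hdac6 at 1.36, the polyglutamylase Ttll1 at 1.05, the polyglutamylase subunit Tpgs2 at -0.51 and Ttll11 at -0.38. Ttl, the ligase that adds back the terminal tyrosine of alpha-tubulin, had 13.2 to 14.0 TPM in all 4 samples and a log2 fold change of 0.0079, and was named after its values were seen. The gamma-tubulin ring complex had 3 of 9 higher and 0 lower, against the same 21.9% and 2.27%, with Tubg1 at 1.31, Tubgcp6 at 1.11, Nedd1 at -0.19 and Mzt1 at -0.74. Among the microtubule-severing genes, Katnal2 was at 1.19, Katnal1 at -0.08 and Fignl1 at -0.22.

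Tubulin messages are degraded when free heterodimer is in excess, through recognition of the nascent amino terminus by the factor encoded by Ttc5 and recruitment of the CCR4-NOT deadenylase. The first 12 coding bases, which specify the recognized residues, were atgcgtgagtgc in Tuba1a, Tuba1b and Tuba1c, atgcgcgagtgc in Tuba4a, atgcgcgagatc in Tubb2a, atgcgagagatc in Tubb2b, atgagggagatc in Tubb3 and Tubb4b, and atgagggaaatc in Tubb5. The 3 genes of this pathway that were listed had log2 fold changes of 0.09 (Ttc5), 0.09 (Cnot11) and -0.35 (Scaper), and their genotypes overlapped.

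The promoters of the 3 members higher at an unadjusted p under 0.05 are shown as the 300 bases around the annotated start, 5′ to 3′ on the gene's strand, from the RefSeq table of GRCm38.p6. Capitals mark matches on either strand to the CCAAT box (its letters as named), to the GC box, spelled GGGCGG, and to the core of the TATA box, spelled TATAAA, and no match overlapped another.

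Tuba1c: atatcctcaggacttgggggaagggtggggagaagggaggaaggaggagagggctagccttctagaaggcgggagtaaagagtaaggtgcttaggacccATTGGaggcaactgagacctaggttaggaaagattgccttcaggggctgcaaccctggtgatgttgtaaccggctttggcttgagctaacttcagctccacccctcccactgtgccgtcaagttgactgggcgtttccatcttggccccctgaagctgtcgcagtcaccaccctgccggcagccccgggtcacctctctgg
Tubb4b: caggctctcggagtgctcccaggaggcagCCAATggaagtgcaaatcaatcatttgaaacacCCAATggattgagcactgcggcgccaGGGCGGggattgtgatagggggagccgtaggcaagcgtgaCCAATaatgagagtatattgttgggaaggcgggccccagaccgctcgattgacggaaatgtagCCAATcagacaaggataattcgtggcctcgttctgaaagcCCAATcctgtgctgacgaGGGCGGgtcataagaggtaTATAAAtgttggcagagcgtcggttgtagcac
Tubb5: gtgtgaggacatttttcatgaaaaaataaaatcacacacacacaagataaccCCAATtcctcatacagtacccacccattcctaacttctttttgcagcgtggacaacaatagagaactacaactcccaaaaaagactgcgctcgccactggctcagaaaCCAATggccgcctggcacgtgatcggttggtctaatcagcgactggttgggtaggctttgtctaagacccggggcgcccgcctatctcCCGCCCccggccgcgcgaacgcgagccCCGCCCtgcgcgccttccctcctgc

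These windows lie at chr15:99029641-99029940 on the plus strand, chr2:25224653-25224952 on the minus strand and chr17:35838252-35838551 on the minus strand. The Tubb4b window held 5 CCAAT, 2 GGGCGG and 1 TATAAA matches, the Tubb5 window 2 CCAAT and 2 GGGCGG matches, and the Tuba1c window 1 CCAAT match. Of 32851 promoters in the table, 37.4% held CCAAT, 35.7% held GGGCGG and 13.6% held TATAAA, so CCAAT and GGGCGG were common and TATAAA less so. These shares count presence and not copies, so they give no background for the 5 CCAAT matches of Tubb4b. The Tuba1a window held 1 CCAAT and 1 GGGCGG match, and the Tuba1b window 2 GGGCGG matches and no CCAAT. The Tubb2a window held 2 GGGCGG and 1 TATAAA matches, and the Tubb3 window 1 CCAAT and 2 GGGCGG matches.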

How the data were processed

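RNA-seq of 4 primary mouse NSC samples, 2 +/+ and 2 Chd5-/-, was analysed. The authors deposited TPM values with 2 decimals in 1 table. Per the labels, Bowtie2 2.2.3, RSEM 1.2.20 and the mm10 build were named in the submitters' processing notes, from stranded mRNA libraries. The sum of TPM is the same in each sample, and depth is unknown. Columns were assigned to samples by name.

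The 12576 of 18169 rows whose mean TPM reached 1 were tested on log2(TPM + 1) with limma 3.58.1 in R 4.3.3 (eBayes with a trend, two-sided). Adjustment was Benjamini-Hochberg over all rows tested. No count model was used. Each group has 2 samples, so p-values rest on the spread between single-animal cultures, which limma moderated towards that of rows at a like level. By the age entries, that spread also holds a difference in age within each group. Coding sequences and positions came from GENCODE M21 of GRCm38 and promoters from RefSeq. The members and lists were chosen with earlier results of these data known. Named genes were the members, the 2 largest and 2 smallest log2 fold changes of each list, all further tubulin genes, the 2 most abundant markers of each list and any marker the text needed, and the 3 rows nearest in profile to Tuba1c and Tubb4b. A few items named by it were left out. Alternatives are given in the closing section. The script was tested on simulated data. Figures were made with matplotlib 3.10.9 in Python 3.11.15.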

Additional observations from a re-analysis of the deposited data

How the results depend on the processing

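Tuba1c, Tubb2b, Tubb4b and Tubb5 kept their direction in all 17 alternatives. Members higher at an unadjusted p under 0.05 numbered 3, 1 with GC and length trends removed, alone or with the replicate block, and 2 to 7 when 1 sample was left out; members lower numbered 0 to 1 and members at an adjusted p under 0.05 numbered 0 to 3 in the same omissions. The median log2 fold change of the members was 0.11 with median-of-ratios scaling, 0.25 after rescaling without the 20 most abundant rows, -0.22 with GC and length trends removed and 0.45 to 0.76 with 1 sample left out. The summed alpha-tubulin log2 ratio, 0.44 as deposited, was 0.062, 0.18, 0.20 and -0.27 with median-of-ratios scaling, quantile normalization, rescaling and trend removal, and 0.26 to 0.62 in the omissions. The beta-tubulin ratio, 0.69, was 0.31, 0.57, 0.45 and 0.075, and 0.65 to 0.73. With median-of-ratios scaling, 2 members were higher at a limma unadjusted p under 0.05. All-row counts moved under the scalings too, as given in Results, so the member counts alone do not set the members apart. Counts in the omissions rest on a lone sample in 1 genotype and add no evidence.

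Directions turned for Tuba1a (-0.093 with median-of-ratios scaling, -0.36 with trends removed, -0.087 without Chd5-/- replicate 2), Tuba1b (-0.23 with trends removed), Tuba4a (-0.24 with quantile normalization, -0.22 with trends removed, -0.83 without Chd5-/- replicate 1), Tubb2a (-0.14 with median-of-ratios scaling, -4.5e-05 with rescaling, -0.57 with trends removed, -0.29 without Chd5-/- replicate 1) and Tubb6 (0.05 without +/+ replicate 2, 0.76 without Chd5-/- replicate 2). Values with trends removed were the same under the replicate block. With 1 sample left out, Tuba1a ranged from -0.087 to 0.65, Tuba4a from -0.83 to 1.51, Tubb2a from -0.29 to 0.76 and Tubb6 from -1.05 to 0.76. The cause was not tested. The counts of list genes given next have no all-row share beside them. All-row counts moved under the scalings too, as given in Results, so these counts alone do not set the list genes apart.

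List genes higher numbered 14, and 8 with median-of-ratios scaling, 6 with quantile normalization or trend removal, 9 at a minimum of 10 TPM, 3 with the replicate block and trend removal, and 4 to 16 in the omissions. List genes lower numbered 1, and 7, 6, 4 and 3 under the 4 scalings in the order above, 0 at a minimum of 10 TPM, with the replicate block, eBayes without the trend, robust eBayes or the crossed block, and 0 to 4 in the omissions.

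Nothing showed that the replicate numbers pair the samples. Deviations of same-numbered samples correlated at -0.152 across rows, and no source says that a number marks a shared litter or day. With 2 samples per genotype, that correlation cannot exclude pairing. With the block, 3 members were higher and 0 passed the adjusted threshold, and the adjusted p of Tuba1c was 0.217. Crossed numbers, added after seeing the data, gave 3 members higher and 0 past the adjusted threshold. With TPM and 2 samples per genotype, depth and the precision of levels near 1 TPM are unknown.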

Other observations

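The rows nearest in profile to Tuba1c, by root mean square difference of centred log2(TPM + 1) over the 4 samples, were Gabbr2 (0.138), a subunit of the GABA-B receptor, Sparc (0.148), a secreted matrix protein, and Cd82 (0.174), a tetraspanin. Sparc had 120 and 193 TPM in +/+ and 664 and 850 TPM in Chd5-/-. Those nearest to Tubb4b were Lama5 (0.0354), a laminin chain, AK139528 (0.0389) and Sgsm3 (0.0396). With 4 samples, likeness of profile describes these libraries only.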
